A study of Homo sapiens with 4 samples.

Results

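The MYC and MAX network is a family of basic helix-loop-helix leucine zipper transcription factors, and 10 of its genes were followed in pancreatic cancer cells depleted of the histone variant H2A.Z. The genes were taken by symbol (MYC, MYCL, MAX, MXD1, MXD3, MXD4, MXI1, MNT, MLX and MGA), by a rule that uses no measured value but was written with earlier results of these data known. The 10 genes belong to 15054 genes tested, and each of the 10 passed the filter on low values (5 or more counts in 2 or more libraries). MYCL met that filter in both PZT-2 libraries and in 1 of the 2 PANC-1 libraries.

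RNA-seq had been performed on 2 libraries of PANC-1, an untransduced human pancreatic adenocarcinoma line labelled wild type, and on 2 libraries of PZT-2, a knockdown line made from PANC-1. PZT-2 is 1 puromycin-selected clone that carries lentiviral short hairpin RNAs driven by the U6 promoter. Of these, 1 is against H2A.Z.1 (gene H2AFZ) and 1 against both H2A.Z.2 isoforms (gene H2AFV). The effects of the depletion, of transduction and selection, and of the history of this clone therefore cannot be told apart. The paper also describes RNA-seq of a scrambled-hairpin line, with similar differences from PZT-2, which is not among these libraries. PANC-1 and PZT-2 were grown in DMEM with 10% serum and no drug treatment is given in the labels. The study calls the 2 libraries of a line biological replicates, but do not say whether these were separate cultures, and the p-values below measure only the spread between these libraries. A bulk RNA level cannot tell fewer cells that use a gene from less RNA in each cell.

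In this network MAX is the common partner. MYC and its relative MYCL pair with MAX to activate genes for growth, ribosome production and the cell cycle from a DNA motif named the E-box, whereas the MXD proteins, MXI1, MNT and MGA pair with MAX on the same motif and recruit repressors. A parallel branch pairs MLX with MLXIP (MondoA) or MLXIPL (ChREBP), which respond to glucose.

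Recovered totals were 12861479 and 15717575 estimated counts in PANC-1 and 13955502 and 14175637 in PZT-2. The normalized count of H2AFZ was 6211 ± 251 (SD, n = 2) in PANC-1 and 2236 ± 32.4 in PZT-2, and that of H2AFV was 3397 ± 77.3 and 2654 ± 90.6, so both targeted genes were lower in the knockdown line. Of the 6 epithelial markers all had a value, and their summed level was 7224 to 7249 TPM (transcripts scaled per library to a common total) in PANC-1 and 3745 to 3817 TPM in PZT-2, with KRT8, KRT18, KRT19 and CDH1 called lower. CDH1 (E-cadherin) was at 0 and 18.8 normalized counts in the PZT-2 libraries, and the part of these markers in the network values was not tested. Of 10 markers of other cell types 8 had no value, among them PTPRC, ALB and INS. The 2 with a value, PECAM1 and PDGFRB, summed to 0.310 to 0.427 TPM in PANC-1 and 0.407 to 0.451 TPM in PZT-2. Over all genes 28.4% passed edgeR's quasi-likelihood test at an adjusted p of 0.05, 14.8% higher and 13.7% lower in PZT-2. The libraries of the cell lines did not overlap for 66.3% of genes.

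The RefSeq promoter table of GRCh38.p14 (250 bases before to 50 after each start) held 9 of the 10 genes. MYC had no entry. The E-box with the letters CACGTG, which reads the same on both strands, was in a promoter of 3 of these 9 genes (33.3%), against 12.3% of the 11677 tested genes with an entry. The matches lay 238 bases before the start of MXD4, 193 before that of MNT and 50 before that of MLX, and the windows below show them because they are the members' own copies of the motif that the network binds, with the E-box in capitals.

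MXD4, chr4:2262330-2262359, minus strand: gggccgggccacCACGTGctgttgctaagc
MNT, chr17:2401236-2401265, minus strand: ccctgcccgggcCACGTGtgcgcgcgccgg
MLX, chr17:42567038-42567067, plus strand: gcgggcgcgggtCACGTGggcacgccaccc

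MXI1 had 3 promoter entries and none held CACGTG. The shorter motif ACGTG, the core bound by hypoxia-inducible factors, is contained in every CACGTG and was searched on both strands. It was in 1 of the 3 entries, and was found in 31.5% of the tested genes with an entry. Among the network genes 6 of the 9 with an entry held it (66.7%), so a match does not set MXI1 apart. The window is shown because MXI1 changed most among the well-counted members and is a known hypoxia-induced gene. The capitals mark the match, which is on the opposite strand, 113 bases before the start of 1 of the 3 MXI1 entries. The entries were not tied to transcripts. The start of this entry may therefore not be that of the transcript with most MXI1 counts.

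MXI1, chr10:110210106-110210135, plus strand: gtggccaccagtCACGTaagcagagagccg

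A match describes these letters in these windows, and binding was not measured.

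The level of MYC, the central activator of the network, showed no detectable difference between the cell lines. Its normalized count was 1491 and 1456 in the PANC-1 libraries and 1436 and 1477 in the PZT-2 libraries. The libraries of the lines overlapped. The log2 fold change of PZT-2 against PANC-1 was -0.02 (95% interval -0.16 to 0.13, edgeR adjusted p = 0.873), an interval that leaves out a change of 1.5 times in either direction, counted over both RefSeq transcripts of the gene. The deposited result table gives a symbol for only 1 of these 2, and with that transcript alone the log2 fold change was -0.21 (adjusted p = 0.0605). The 20 nearest tested genes on chromosome 8 had a median log2 fold change of 0.02. RNA levels say nothing of MYC protein, whose turnover is rapid and regulated.

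MYCL, a MYC relative first known from small cell lung cancer, was close to the detection limit in PANC-1 and was called higher in PZT-2. It had 2 and 6 counts in the PANC-1 libraries and 17 and 19 in the PZT-2 libraries. The PZT-2 libraries were the higher pair, with no overlap. The log2 fold change was 2.15 (SE 0.545, edgeR adjusted p = 0.0287). The counts alone, 8 against 36 over the pairs of libraries, gave a ratio of 4.48 with a 95% counting interval of 2.05 to 11.2. That interval covers counting error only and leaves out the spread between libraries. The mean level of MYCL in PZT-2 was 0.664 TPM, far below the 40.8 TPM of MYC in the same line. The call was lost when PANC-1 replicate 1 (adjusted p = 0.0674), PZT-2 replicate 1 (0.0757) or PZT-2 replicate 2 (0.101) was left out.

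MAX, the obligate partner of MYC and the usual partner of the MXD proteins and MNT, did not pass the test. Its normalized count was 422 and 426 in PANC-1 and 375 and 398 in PZT-2. The PZT-2 libraries were the lower pair, with no overlap, and the log2 fold change was -0.13 (95% interval -0.34 to 0.07, adjusted p = 0.304). The ratio of MYC to MAX in TPM was 1.38 and 1.37 in PANC-1 and 1.66 and 1.499 in PZT-2, with the PZT-2 ratios above. It depends on how kallisto divided the MAX counts between transcripts of unlike length. The 910-base transcript held 4.85 of 30.5 TPM in PANC-1 replicate 1, 0.508 TPM in PANC-1 replicate 2 and near 0 in PZT-2. MAX overlaps the annotated genes FNTB and CHURC1-FNTB, for which the log2 fold changes were -0.07 (adjusted p = 0.826) and -0.27 (adjusted p = 0.0856). An exact permutation test (two-sided) over so few libraries gives no p under 0.33, so this ratio was not tested.

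**Figure D1:**
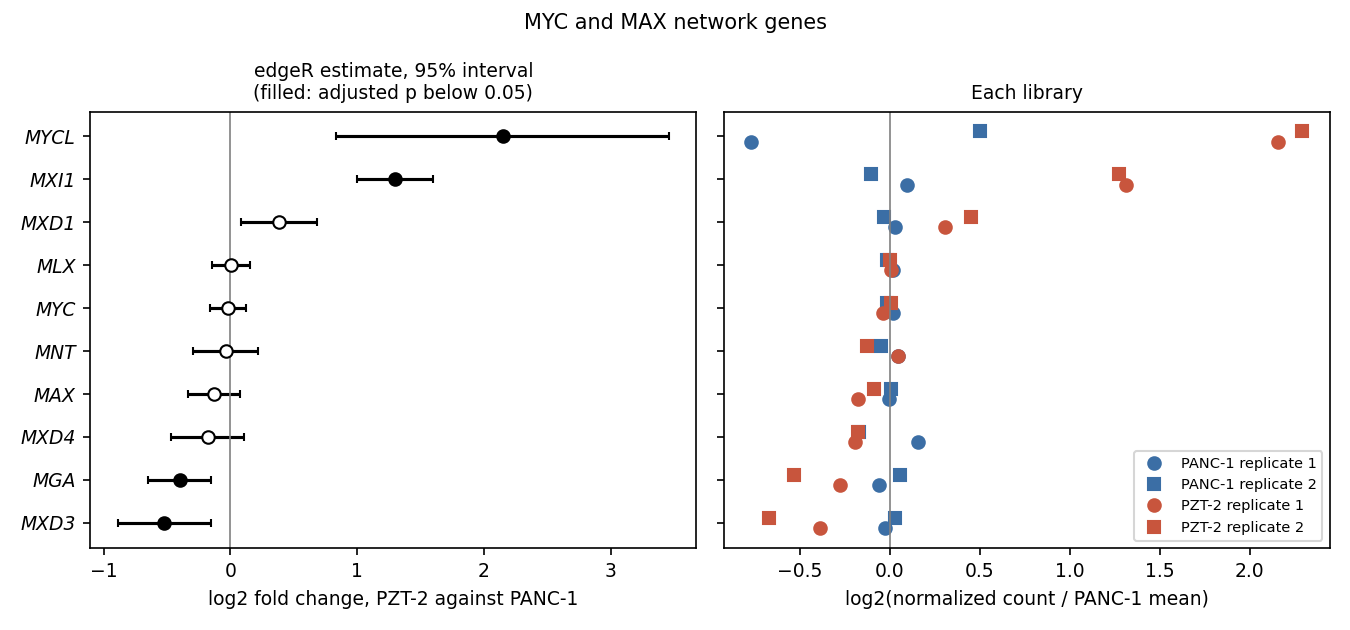
Left, the log2 fold change of PZT-2 against PANC-1 for the 10 network genes, with the 95% interval of edgeR and filled points for adjusted p below 0.05. Right, each library's normalized count as a log2 ratio to the PANC-1 mean, on which MXI1 shows 2 PZT-2 libraries close together and far above PANC-1, while MYC, MLX and MNT overlap.

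Of the 10 genes, 4 were called (40%, against 28.4% of all genes tested). MYCL was called higher, but it met the filter only with the help of PZT-2, the line where it was higher, so its call adds no support. MXI1 was higher, and MXD3 and MGA lower. The members thus did not move in 1 direction, and their median log2 fold change was -0.03, against 0.001 for all genes tested. The libraries did not overlap for 7 of the 10, 3 above (33.3% of all genes tested) and 4 below (32.9%), against 66.3% of all genes in either direction. Leaving out PANC-1 replicate 1 or PZT-2 replicate 1 reduced the number called to 2, and leaving out PZT-2 replicate 2 reduced it to 1, which was MXI1.

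MXI1, a repressor of the MXD family that competes with MYC for MAX, was the most clearly changed. The normalized count was 122 and 106 in the PANC-1 libraries and 282 and 275 in the PZT-2 libraries. Both PZT-2 libraries had more than 2 times the count of either PANC-1 library. The log2 fold change was 1.297 (SE 0.124, adjusted p = 0.00104), a 2.46-fold increase, and 2.74% of all genes tested had a larger log2 fold change. In the plot of fold changes its interval (0.998 to 1.596) stands clear of every other well-counted member. The call held in each of 16 alternative analyses, with log2 fold changes of 1.12 to 1.39. The 20 nearest tested genes on chromosome 10 had a median log2 fold change of 0.08, with 3 called higher and 3 lower.

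MXD1 (formerly MAD), a MYC antagonist that increases when cells differentiate, did not pass the threshold. Its normalized count was 153 and 146 in PANC-1 and 185 and 205 in PZT-2. Both PZT-2 libraries lay above, and the log2 fold change was 0.38 (SE 0.124, adjusted p = 0.0622). Genes beside MXD1 on chromosome 2 were also higher in PZT-2. Of its 20 nearest tested genes 9 were called higher and 2 lower, with a median log2 fold change of 0.21, and their part in the value of MXD1 was not tested.

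MXD3, the MXD gene that is expressed in proliferating cells around S phase, was called lower, near the threshold. The normalized count was 150 and 155 in PANC-1 and 117 and 95.9 in PZT-2. Both PZT-2 libraries lay below, with a log2 fold change of -0.52 (SE 0.152, adjusted p = 0.0455). The call was lost in each of the 4 analyses that left out 1 library (adjusted p 0.0508 to 0.239). Of 15 mitotic genes 9 were also called lower and 0 higher (60%, against 13.7% lower over all genes), with a median log2 fold change of -0.32, among them TOP2A (-0.73), CENPE (-0.62), CENPF (-0.57) and CCNB1 (-0.49), and their part in the value of MXD3 was not tested. MXD3 overlaps PRELID1, for which the log2 fold change was -0.17 (adjusted p = 0.0476). The libraries were made with a stranded kit, but the strand setting of the quantification is not given in the sources used here, and reads of the pair may be mixed.

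MXD4, the most abundant MXD gene per length in both lines, did not pass the test. Its normalized count was 574 and 457.3 in PANC-1 and 451 and 456.8 in PZT-2. PANC-1 replicate 1 stood apart and the other three libraries were within 7 counts of each other. The log2 fold change of -0.18 (95% interval -0.47 to 0.11, adjusted p = 0.319) became -0.02 without PANC-1 replicate 1, and -0.35 (adjusted p = 0.0293) without PANC-1 replicate 2. The estimate therefore moved with the choice of PANC-1 library.

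MNT, a broadly expressed repressor that limits MYC activity, and MLX, the partner of the glucose-responsive Mondo proteins, showed no detectable difference. MNT had 302 and 283 normalized counts in PANC-1 and 301 and 268 in PZT-2, with a log2 fold change of -0.04 (95% interval -0.29 to 0.22, adjusted p = 0.836). MLX had 1010.4 and 988 normalized counts in PANC-1 and 1003 and 1002 in PZT-2, with a log2 fold change of 0.005 (95% interval -0.14 to 0.15, adjusted p = 0.967). For both genes the libraries overlapped, and the interval of MLX was about as narrow as that of MYC. MLX overlaps PSMC3IP, whose log2 fold change was 0.26 (adjusted p = 0.248).

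MGA, the largest protein of the network and the subunit that brings MAX into a Polycomb repressor complex, was called lower. The normalized count was 759 and 825 in PANC-1 and 653 and 548 in PZT-2. Both PZT-2 libraries lay below, with a log2 fold change of -0.40 (SE 0.103, adjusted p = 0.0295). The call was lost without PZT-2 replicate 2 (adjusted p = 0.154). The 20 nearest tested genes on chromosome 15 had a median log2 fold change of 0.19, with 6 called higher and 0 lower, so MGA differed in direction from the median of its neighbours.

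Levels were compared between genes in TPM, which corrects for transcript length. In PANC-1 the order was MLX (55.0 TPM), MYC (41.7), MAX (30.3), MXD4 (17.6), MXD3 (12.5), MGA (8.34), MNT (7.65), MXI1 (4.47), MXD1 (3.37) and MYCL (0.141). In PZT-2 the first 4 kept their places, and MXI1 moved from rank 8 to rank 5 with 10.9 TPM, above MXD3 (8.68), MNT (7.38), MGA (6.25), MXD1 (4.35) and MYCL (0.664). In either line the libraries of each gene lay apart from those of the next gene in the order. MGA and MNT, neighbours in this order, were closest in PANC-1, and their order was exchanged in PZT-2.

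**Figure D2:**
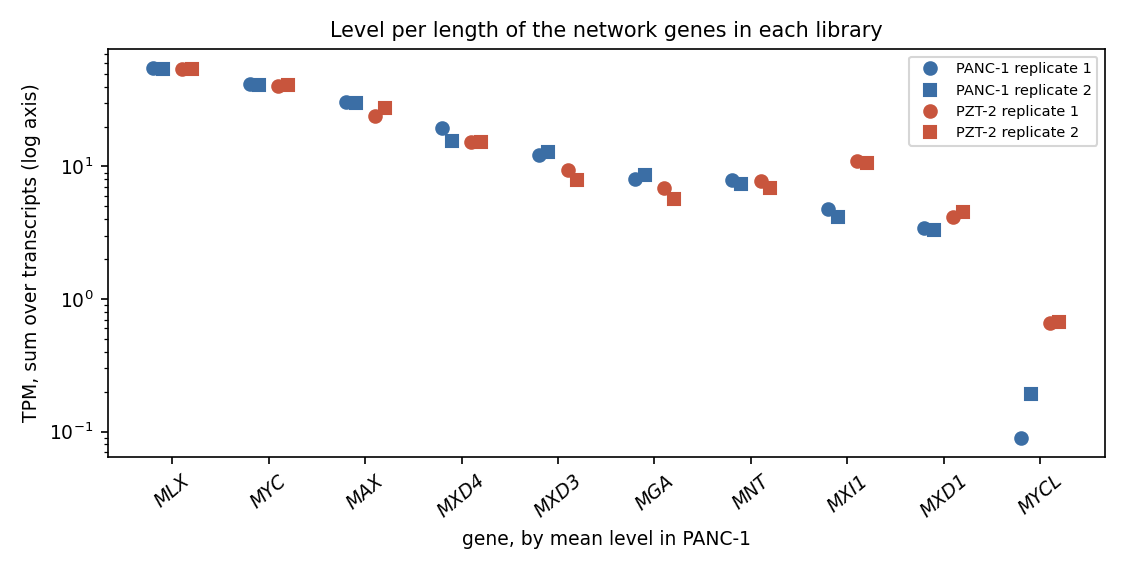
TPM of each network gene, summed over its transcripts, in each of the 4 libraries on a log axis, ordered by the PANC-1 mean. MXI1 is near 4.47 TPM in PANC-1 and near 10.9 TPM in PZT-2, whereas the MLX and MYC points of all libraries lie nearly level.

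MXI1 made up a larger share of the MXD and MNT repressors in PZT-2. MGA, which also pairs with MAX, was left out of this sum. The summed level of MXD1, MXD3, MXD4, MXI1 and MNT was 47.8 and 43.4 TPM in PANC-1 and 47.6 and 45.5 TPM in PZT-2, with overlapping libraries. Within this sum MXI1 made up 9.94% and 9.67% in PANC-1 and 23.2% and 23.4% in PZT-2, and MXD4 made up 40.8% and 36.0% in PANC-1 and 32.0% and 33.8% in PZT-2. The ratio of MYC to the summed 5 was 0.880 and 0.951 in PANC-1 and 0.845 and 0.907 in PZT-2, again with overlapping libraries. MXI1 stood at 1.38 and 1.27 times the TPM of MXD1 in PANC-1 and at 2.66 and 2.34 times in PZT-2. These ratios rest on RNA and do not give amounts of protein or of dimers.

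The 10 genes had 23 RefSeq transcripts in the deposited table, of which 20 passed the filter. None was called by edgeR (0 of 20, against 0.148% of all transcripts), 2 had an unadjusted p under 0.05, and DESeq2 called 2 (against 14.5% of all transcripts). The pair was the same by both tools. NM_005962 of MXI1 had a log2 fold change of 1.23 (edgeR adjusted p = 0.0957, DESeq2 adjusted p = 2.41e-05), and NM_002467 of MYC had one of -0.22 (edgeR adjusted p = 0.170, DESeq2 adjusted p = 0.0436).

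The MYC transcripts differ in length by 3 bases, so few reads can tell them apart. NM_001354870, the shorter, took 0% and 4.29% of all MYC counts in PANC-1 and 12.7% and 16.1% in PZT-2. The PZT-2 shares lay above, but the transcript itself did not pass the test (edgeR adjusted p = 0.576). The sum over both transcripts, given above, does not depend on this division.

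For MAX, which encodes a short and a long isoform that differ by a small insertion, 7 transcripts were listed. NM_002382, 27 bases longer than NM_145112, took 40.3% and 56.2% of the MAX counts in PANC-1 and 29.9% and 7.60% in PZT-2. NM_145112 took 49.5% and 35.3% in PANC-1 and 49.4% and 65.6% in PZT-2. The share of the longer was lower in both PZT-2 libraries, yet its log2 fold change of -1.52 did not pass the test (edgeR adjusted p = 0.416), and PZT-2 replicate 1 was nearer to PANC-1 replicate 1 than to the other PZT-2 library. For MXI1, NM_005962 took 84.7% and 100% in PANC-1 and 94.2% and 82.7% in PZT-2, so the same transcript dominated in every library.

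**Figure D3:**
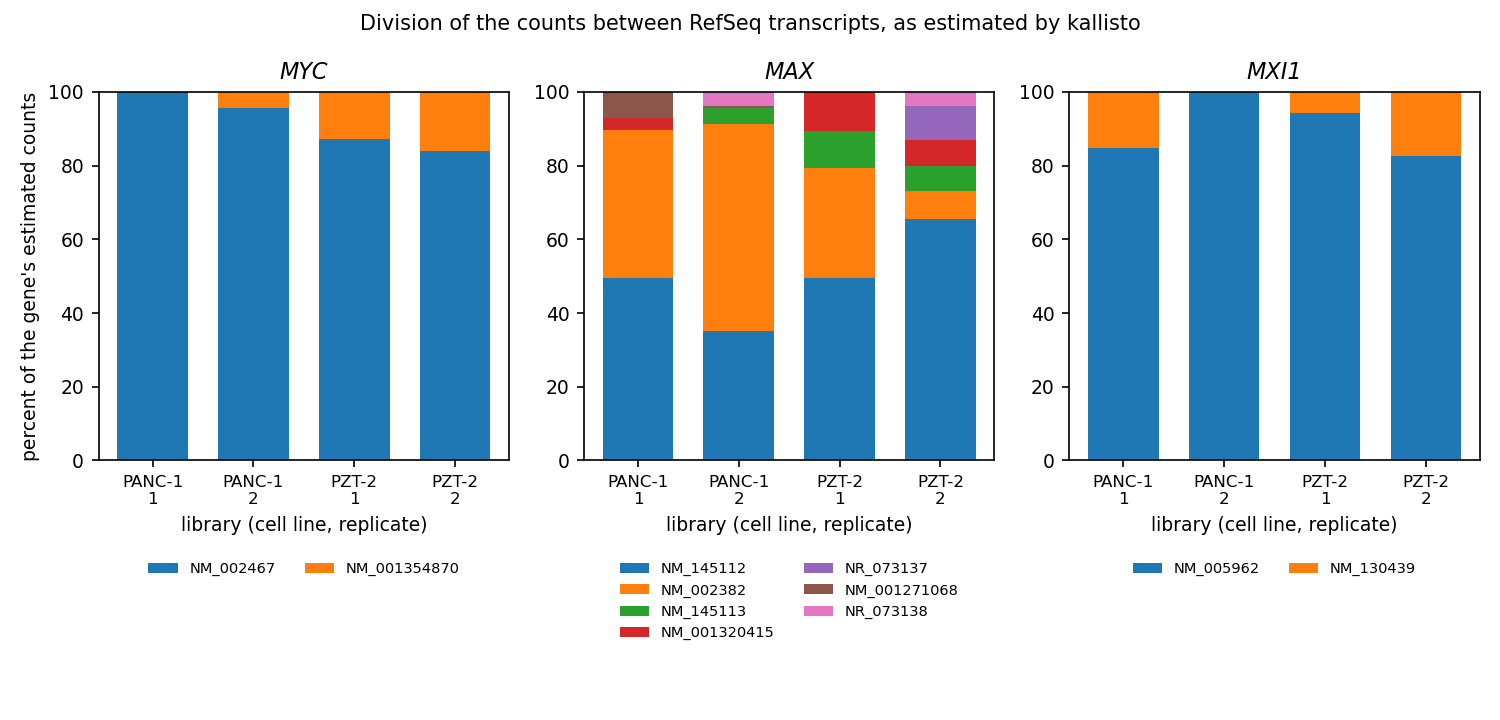
Share of each gene's estimated counts that kallisto gave to each RefSeq transcript of MYC, MAX and MXI1, as stacked bars per library. For MYC the second transcript goes from 0% and 4.29% in PANC-1 to 12.7% and 16.1% in PZT-2, and for MAX the shares vary between replicates as well as between lines.

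The glucose-responsive branch that pairs with MLX was followed through a few genes. Of MYCN, MLXIP, MLXIPL and the branch's classical targets TXNIP and ARRDC4, 4 had a value, 3 were called lower and 0 higher (75% called, against 28.4% of all genes, and 13.7% lower), and 1 of these 3, MLXIPL, was near the detection limit. MLXIP had 2440.5 and 2195 normalized counts in PANC-1 and 1798 and 1557 in PZT-2, with a log2 fold change of -0.47 (adjusted p = 0.0112). ARRDC4, an arrestin-domain gene that limits glucose uptake, had 50.6 and 35.2 in PANC-1 and 11.1 and 14.8 in PZT-2, with a log2 fold change of -1.71 (adjusted p = 0.0162). For both genes each PZT-2 library lay below each PANC-1 library. MLXIPL was barely counted and met the filter only through its PANC-1 libraries, the line where it was higher, so its call adds no support. It had 22 and 9 counts in PANC-1 and 0 and 2 in PZT-2, with a PZT-2 to PANC-1 ratio of 0.0642 (95% counting interval 0.00745 to 0.252, adjusted p = 0.0362), and it was not called in either of the 2 analyses without 1 library in which it could be tested. TXNIP, a paralog of ARRDC4 with the same role, did not pass, with 106 and 70.5 normalized counts in PANC-1, 55.4 and 48.5 in PZT-2 and a log2 difference of -0.75 (adjusted p = 0.0709). Leaving out PZT-2 replicate 1 kept 1 of the 3 edgeR calls of this list, and leaving out PZT-2 replicate 2 kept 0, with 3 at an unadjusted p under 0.05.

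The promoter of ARRDC4 held the E-box 210 bases before its start, shown in capitals because it is a known target of MLX dimers that was called lower.

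ARRDC4, chr15:97960481-97960510, plus strand: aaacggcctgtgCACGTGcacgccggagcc

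Of 17 coactivators of MYC 2 were called higher and 5 lower (41.2%, against 28.4% of all genes), with a median log2 fold change of -0.15, and 3 were called when either PZT-2 replicate 1 or PZT-2 replicate 2 was left out. BPTF, the reader subunit of the NURF remodeller, was lower by -0.61 on the log2 scale, KAT5 (TIP60), an acetyltransferase, by -0.58 and RUVBL2, an ATPase, by -0.51, while ACTL6A, an actin-related subunit, was higher by 0.31. KAT5, RUVBL1, RUVBL2, ACTL6A and EP400 are also subunits of the complex that exchanges H2A.Z into nucleosomes. RUVBL1, opposite to RUVBL2, was called higher by 0.17 (edgeR adjusted p = 0.0447). EP400, with a log2 fold change of -0.16 and an adjusted p of 0.188, was not called. BPTF, KAT5 and RUVBL2 were called in each analysis without 1 library, and ACTL6A in 2 of 4.

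The SIN3 complex is the histone deacetylase complex that MXD proteins and MXI1 recruit. Of 14 genes 3 were called higher and 2 lower (35.7%, against 28.4% of all genes, 14.8% higher and 13.7% lower). Their median log2 fold change was 0.03. The 5 calls became 1 when either PZT-2 replicate was left out and 8 without PANC-1 replicate 2. Its scaffolds SIN3A and SIN3B were higher by 0.33 and 0.36 and ING1 by 0.57, and ING2 was lower by -0.80 and ARID4B by -0.44. ING1 and ING2 are related readers of histone H3 methylation that went in opposite directions. ING1 and ARID4B were each called in only 1 of the 4 analyses without 1 library, SIN3B in 2 and ING2 in 3.

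The Polycomb complex that contains MGA gave 3 higher and 1 lower call among 13 genes (30.8%), a share near the 28.4% of all genes, with a median log2 fold change of 0.09. TFDP2, an E2F partner, was higher by 0.55, RYBP by 0.43 and E2F6, the E2F repressor of the complex, by 0.42, whereas L3MBTL2 was lower by -0.34, as was MGA itself. TFDP2 and RYBP lie on chromosome 3, and without genes of chromosomes 3 and X the complex gave 1 higher and 1 lower call among 11 genes. Leaving out PZT-2 replicate 1 gave 2 calls and leaving out PZT-2 replicate 2 gave 1.

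Of 21 genes that control MYC protein stability, 1 was called higher and 3 lower (19.0%, against 28.4% of all genes), with a median log2 fold change of 0.01. FBXO32, a ubiquitin ligase subunit, was higher by 0.53. HUWE1, another ubiquitin ligase, was lower by -0.30 and the deubiquitinase USP28 by -0.27. FBXO32 and HUWE1 were called in 3 of the 4 analyses without 1 library and USP28 in 1. The 4 calls of the list became 2 when PZT-2 replicate 1 was left out and 0, with edgeR, when PZT-2 replicate 2 was (3 at an unadjusted p under 0.05). FBXW7, the classical MYC ligase, was not among those called.

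The target lists of MYC did not share 1 direction. Of 34 nucleolar and ribosome-assembly genes 4 were called higher and 7 lower (32.4%, near the 28.4% of all genes), with a median of 0.03. These 11 calls became 4 when either PZT-2 replicate was left out and 18 without PANC-1 replicate 2. GNL3 (nucleostemin) was higher by 1.00 and WDR43 by 0.73, and UTP20 was lower by -0.63 and PPAN by -0.42. Of 16 cell cycle targets 3 were called higher and 3 lower (37.5%), with a median of 0.01, and 2 were called when either PZT-2 replicate was left out. The cell cycle phosphatase CDC25A was higher by 0.82 and the helicase subunit MCM4 by 0.33, and MCM7, of the same helicase, was lower by -0.31. ID2, an inhibitor of differentiation factors, had 30.4 and 47.9 normalized counts in PANC-1 and 198 and 201 in PZT-2, higher by 2.32 on the log2 scale (adjusted p = 0.000854).

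Of 27 metabolic targets 8 were called higher and 2 lower (37.0%, against 14.8% higher and 13.7% lower over all genes), with a median of 0.11. Of the 8, 4 lie on chromosome 2, where 25.2% of all tested genes were called higher, and without PZT-2 replicate 2 the list gave 3 higher and 1 lower call. The glucose transporter SLC2A1 was higher by 0.71 and the transferrin receptor TFRC by 0.63. The pyrimidine synthesis enzyme CAD was higher by 0.56 and hexokinase HK2 by 0.47 (edgeR adjusted p = 0.0499). The 2 called lower were ENO1, by -0.41 (edgeR adjusted p = 0.000855), and SRM, by -0.20 (edgeR adjusted p = 0.0487). CAD and SLC2A1 were called in each analysis without 1 library, TFRC in 3 of 4 and HK2 in 1 of 4.

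Genes that MYC is known to repress included the largest change of these lists among genes with at least 100 normalized counts. NDRG1, a gene repressed by MYC and induced by hypoxia and differentiation, had 178 and 168 normalized counts in PANC-1 and 1368 and 1431 in PZT-2, higher by 3.02 on the log2 scale (adjusted p = 4.02e-05). Of 14 listed genes 12 had a value, and 3 were called higher and 1 lower (33.3%, near the 28.4% of all genes), with a median of 0.19, and 7 were called without PANC-1 replicate 2. The stress gene GADD45A was higher by 0.92 and the cell cycle inhibitor CDKN1A (p21) by 0.74, and CDKN2C (p18) was lower by -0.51. GADD45A, NDRG1 and CDKN2C were called in each analysis without 1 library, and CDKN1A in 3 of 4.

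Position on the chromosomes moved with these counts. On chromosome 3, 48.4% of 831 genes tested were called higher and 2.53% lower, and on chromosome X 6.33% were called higher and 36.1% lower. On chromosome 2, 25.2% were called higher and 9.22% lower. In the 9 partner and target lists 27 genes were called higher. Of these, 9 lie on chromosome 3, among them GNL3, CDC25A, TFRC, ACTL6A, TFDP2 and RYBP, and 8 lie on chromosome 2. The lists held 12 tested genes on chromosome 3 and 20 on chromosome 2, of 153 in all. Without genes of chromosomes 3 and X the coactivators gave 0 higher and 4 lower calls, the MGA complex 1 and 1, the nucleolar genes 2 and 6, the metabolic genes 6 and 2, and the repressed genes 3 and 1. Copy number was not measured. None of the 10 network genes lies on chromosome 3 or X, and NDRG1, MXI1, SLC2A1 and ARRDC4 do not either. MXD1 lies on chromosome 2. MGA and ARRDC4, both called lower, and SIN3A, called higher, lie on chromosome 15. The median log2 fold change of 526 tested genes there, MGA left out, was 0.24. It was 0.12 on chromosome 2 and 0.001 over all genes tested.

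The E-box was in a larger share of promoters in the 4 MYC target lists and the coactivators than over all tested genes (12.3%), as counted without a test. CACGTG was found in 14 of 28 nucleolar genes with an entry (50%), 10 of 24 metabolic genes (41.7%), 5 of 13 cell cycle targets (38.5%), 2 of 9 repressed targets (22.2%), 3 of 11 coactivators of MYC (27.3%) and 1 of 13 SIN3 genes (7.69%). MYC targets are known for this motif. The lists' median log2 fold changes in PZT-2, 0.01 to 0.19 for the target lists, are those given above.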

How the data were processed

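RNA-seq libraries of PANC-1 (2) and PZT-2 (2) were compared. The authors trimmed reads with Trim Galore 0.4.1, quantified RefSeq transcripts with kallisto 0.43.0 and used sleuth 0.29.0. The processing notes name hg19, and the RefSeq release is not given in the sources used here. The authors deposited estimated counts and TPM per transcript and library. Effect sizes, p-values and q-values of the authors' own comparison were not used.

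Deposited estimated counts carried 1 factor per library (1.16, 0.935, 1.03 and 1.01), which was undone, after which 41.0% to 42.2% of values between 0.5 and 30 of single-transcript genes were whole within 0.01, against 0.915% to 2.39% as deposited. Transcripts were summed to 15222 genes, 27049 by the table's symbol and 3925 by accession, and 103 with 0.0466% of counts stayed unnamed. Counts were rounded, filtered (at least 5 in at least 2 libraries) and tested with edgeR 4.0.16 (TMM, quasi-likelihood, Benjamini-Hochberg over all genes) in R 4.3.3. Normalized counts are per mean effective library. On simulated counts of 14808 genes with 200 changed 2-fold, edgeR called 187 of the 200 and 37 others. In this simulation 37 of 224 calls were thus wrong, more than the adjusted p threshold of 0.05 implies. Adjusted p-values near the threshold, such as those of MXD3 and HK2, may therefore understate the error. The simulation changed 200 of 14808 genes, whereas 28.4% of genes were called in the data. It therefore does not give the share of wrong calls in the data. The network genes and lists were chosen with earlier results of these data known, and the lists were described by counts and medians only. All network genes, the MLX branch and, per list, up to 4 called genes with the largest change and at least 100 normalized counts are named. Part of what this rule names is left out here. Chromosome 3 and X genes were counted separately after the values were seen, and EP400, RUVBL1, SIN3A, FBXW7, ENO1, SRM and overlapping genes were named then. Alternatives were RLE factors, DESeq2 1.42.0, other filters, limma-trend 3.58.1 on TPM, deposited counts, a replicate block, each library left out, length-scaled counts and the most abundant transcript alone. Chosen with the values known were the table's symbols alone, edgeR's version 4 dispersion and, for counts of network genes called, the transcript and length alternatives. Intervals from counts cover counting error only.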

Additional observations from a re-analysis of the deposited data

How the results depend on the processing

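MXI1 passed the threshold in 16 of 16 alternatives, MGA in 11 of 16, MYCL in 10 of 14 and MXD3 in 8 of 16, and MXD4 passed only without PANC-1 replicate 2. MYC, MAX, MXD1, MNT and MLX passed in none. DESeq2 gave no adjusted p for MYCL. The number of network genes called, 4, became 2 with DESeq2, 1 with the most abundant transcript alone and 1 to 4 with a library left out, PZT-2 replicate 2 giving 1. Values near 0 changed sign for MYC without PZT-2 replicate 1 (0.0037), MNT without PANC-1 replicate 1 (0.0034) and PZT-2 replicate 2 (0.045), and MLX with limma-trend on TPM (-0.0085 and -0.0086), without PANC-1 replicate 2 (-0.019) and with the most abundant transcript alone (-0.021). With a library left out the log2 fold change ranged from -0.041 to 0.0037 for MYC, from -0.124 to 0.045 for MNT and from -0.019 to 0.016 for MLX. MAX was 0.31 with that transcript alone. The cause was not tested. Transcripts called were 2 with DESeq2 and 1 at a minimum of 10 counts in all 4 libraries, against 0.

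Same-numbered libraries did not deviate together over the genes (correlation -0.02). This value cannot show whether they were prepared as pairs. With the replicate block 2 network genes (MYCL and MXI1) and 2 turnover genes were called.

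The SIN3 list, with 5 called, gave 3 with DESeq2 and 3 with limma-trend at either pseudocount, and the turnover list, with 4, gave 2 with DESeq2 and 2 with limma-trend on log2(TPM + 0.1). Without chromosomes 3 and X the coactivators gave 4 and the MGA complex 2. Leaving out 1 library gave 1861 to 4675 genes over all genes tested, 4 to 18 nucleolar, 4 to 13 metabolic, 2 to 9 cell cycle, 3 to 7 repressed, 3 to 8 coactivator, 1 to 8 SIN3, 1 to 6 MGA complex, 0 to 5 turnover and 0 to 3 MLX branch genes, where the lone library of a line was assumed to vary like the other pair.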
